A study of Mus musculus with 4 samples.

Results

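BCL6 peaks in later introns are the binding sites of this repressor that the deposited annotation places in any intron other than the first of a transcript. Peaks whose detailed annotation named a repeat and peaks within 1000 bp of the nearest annotated promoter were left out. The rule used the annotation and the distance only, not the height of a peak. It took 452 of 1785 peaks in the inguinal list, or 25.3% with a Wilson 95% interval of 23.4 to 27.4%. In the perigonadal list it took 1011 of 3956 peaks, or 25.6% with an interval of 24.2 to 26.9%. Over both lists these were 1463 of 5741 peaks.

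The study precipitated BCL6 from adipocyte nuclei of C57BL/6 mice of the genotype Adipoq-Cre;Sun1-sfGFP-myc, from inguinal (subcutaneous) and perigonadal (visceral) adipose. Adipoq, the adiponectin gene, drives the Cre in adipocytes, and the tag on the nuclear membrane let their nuclei be collected from the tissue with beads against myc. All libraries share this genotype, and the BCL6 libraries share a custom guinea pig polyclonal antibody against the mouse protein. There was 1 BCL6 library and 1 input library for each of the 2 depots, and the inputs were not analysed here. The labels used here give no age, sex or number of mice, nor whether animals were pooled. With 1 library per depot no difference between depots can be set against variation between animals, and no p-value is given.

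BCL6 is a zinc finger repressor whose BTB domain recruits corepressors such as NCOR1 and BCOR, which bring histone deacetylases to chromatin. It recognises DNA close to that bound by STAT factors, and in fat and liver it is known for its part in growth hormone signalling and lipid metabolism. Introns far from a promoter often hold enhancers, and the gene that an enhancer acts on need not be the gene that holds it.

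The centre of the peak lay inside the RefSeq span of the host gene, the gene whose intron the annotation names, for 446 of 452 inguinal peaks (98.7%). The same held for 1004 of 1009 perigonadal peaks with a host in the table (99.5%). Host and intron come from the same annotated transcript, so these shares check only the match to RefSeq and do not test the label. Most of the exceptions were microRNA genes of 0.065 to 0.116 kb to which the annotation nevertheless gave several introns. The site annotated to Mir297c (chr1:185832226-185832428, mm10, inguinal) was the one among them with a peak in both lists, with scores of 12 inguinal and 17.6 perigonadal, and its peak centre lay in no gene of the table. The host was protein-coding for 427 inguinal and 973 perigonadal peaks, and a long noncoding RNA for 18 and 29.

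The tables used here hold sequence only close to RefSeq gene starts, so 3 of the later-intron peaks could be read in part. They are shown because each lay in an annotated intron but also against a RefSeq start that the deposited annotation did not use. Lower case gives the bases of the peak that fall in the start window, 5′ to 3′ on the strand of that start, and capitals mark a match to TTCNNNGAA, the core that BCL6 and STAT factors share. The sequences are RefSeq's, on GRCm38.p6, which is mm10.
Ankrd24, chr10:81633654-81633748, plus strand: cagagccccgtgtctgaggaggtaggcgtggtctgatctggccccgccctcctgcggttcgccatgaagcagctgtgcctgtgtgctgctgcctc
Umad1, chr6:8345527-8345681, minus strand: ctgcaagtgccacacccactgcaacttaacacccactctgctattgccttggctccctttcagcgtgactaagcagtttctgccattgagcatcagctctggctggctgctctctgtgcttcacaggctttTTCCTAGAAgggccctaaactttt
Trim44, chr2:102365994-102366126, plus strand: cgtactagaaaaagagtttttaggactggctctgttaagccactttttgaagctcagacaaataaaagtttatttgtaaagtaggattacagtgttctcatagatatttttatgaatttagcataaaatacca

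The stretch in Umad1 held TTCCTAGAA, at chr6:8345542-8345550 and 43 bp from the peak centre. The core reads the same on both strands, and 4.05% of the 32817 promoter stretches of the same length and position held it. Neither the Ankrd24 stretch nor the Trim44 stretch held the core, beside 2.41% and 3.89% of matched stretches. None of the 3 held, on either strand, the AP-1 letters TGACTCA, the C/EBP letters TTGCNNAA or the E-box CACGTG, so no such letters overlap the core match, and each of these motifs was held by 1.48 to 5.59% of matched stretches. The perigonadal peak in intron 2 of 19 of Ankrd24, an ankyrin repeat gene, was the tallest of the 3, with a score of 22.9. Its stretch was 66.3% G or C, and its peak centre lay 47 bp from another start of the same gene. The perigonadal peak in Umad1 scored 9.70 and the inguinal peak in Trim44 scored 7.52, and their stretches were 51.6% and 30.1% G or C. The starts beside them were those of Gm46952, 13 bp from the centre of the Umad1 peak, and of Gm52521, 219 bp from that of the Trim44 peak. In all, 2 inguinal and 12 perigonadal members lay within 1 kb of such a start, and 0 of them had a partner in the other list. Among all later-intron peaks 28.3% inguinal and 12.1% perigonadal had an overlapping partner, and these members are too few to set apart from those shares.

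The deposited score is the height of a peak within its own list. Within rounding, 100% of the scores were whole multiples of a single value, 0.752 for inguinal and 0.882 for perigonadal peaks, which was read as 1 sequenced tag. Later-intron peaks in inguinal fat scored from 6.77 to 88.0 with a median of 8.27, beside a median of 9.03 for all other peaks of the list and for first-intron peaks chosen by the same rule (n = 201). In perigonadal fat they scored from 6.17 to 133.1 with a median of 8.82, beside 8.82 for all other peaks and 9.70 for first-intron peaks (n = 394). The median later-intron peak therefore held 11 tags inguinal (Poisson 95% interval 5.49 to 19.7) and 10 tags perigonadal (4.80 to 18.4). All intervals cover counting error only.

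Peaks of more than 12 tags made up 38.5% of later-intron peaks in inguinal fat (174 peaks, interval 34.1 to 43.1%), beside 41.3% of the whole list. In perigonadal fat they made up 24.2% (245 peaks, 21.7 to 27.0%), beside 24.0% of the whole list. Among first-intron peaks the shares were 47.8% inguinal (41.0 to 54.6%) and 32.0% perigonadal (27.6 to 36.7%). Later-intron peaks were thus about as tall as the rest of their list, and in perigonadal fat the intervals of later and first introns did not meet.

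**Figure D1:**
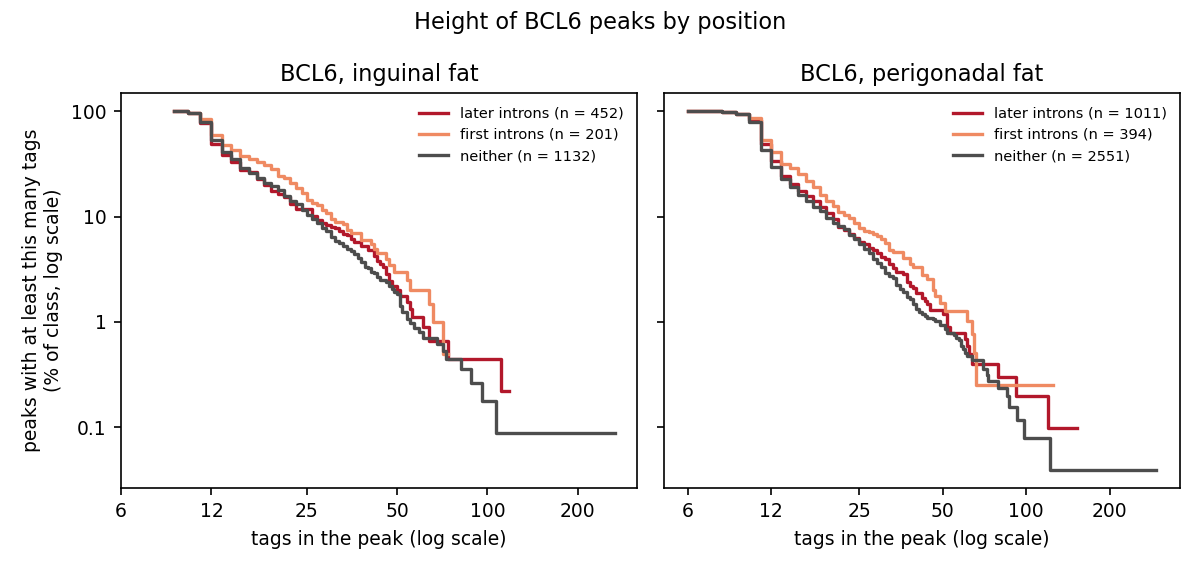
Share of BCL6 peaks (%, log scale) that hold at least the number of tags on the x axis (log scale), for later introns, first introns outside repeats and peaks in neither class, in each list. The curve of the later introns runs below that of the first introns over most of the range in both lists. Its tallest peaks reach 117 tags inguinal and 151 tags perigonadal, beyond the 73 and 124 tags of the tallest first-intron peaks, a smaller class. The tallest peaks in neither class reach 266 and 295 tags.

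The next question was which later-intron sites carried a peak in both depots. A partner is a peak of the other list that overlaps by at least 1 bp. In inguinal fat 128 of 452 later-intron peaks had one (28.3%, 24.4 to 32.6%), beside 28.5% of all inguinal peaks. In perigonadal fat 122 of 1011 had one (12.1%, 10.2 to 14.2%), beside 12.8% of all perigonadal peaks. First-intron peaks had a partner in 34.8% of cases inguinal (28.6 to 41.6%) and in 18% perigonadal (14.5 to 22.1%). The later-intron shares were those of the lists at large.

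Sharing followed height. Of later-intron peaks with more than 12 tags, 113 of 174 inguinal peaks had a partner (64.9%, 57.6 to 71.6%), beside 59.1% of all such inguinal peaks. Among perigonadal peaks of that height 99 of 245 had one (40.4%, 34.5 to 46.7%), beside 43.6% of all. Of those with up to 12 tags, 15 of 278 inguinal peaks (5.40%) and 23 of 766 perigonadal peaks (3.0%) had a partner, beside 6.88% and 3.13% of all peaks of that height. A missing partner says only that no peak was called there.

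**Figure D2:**
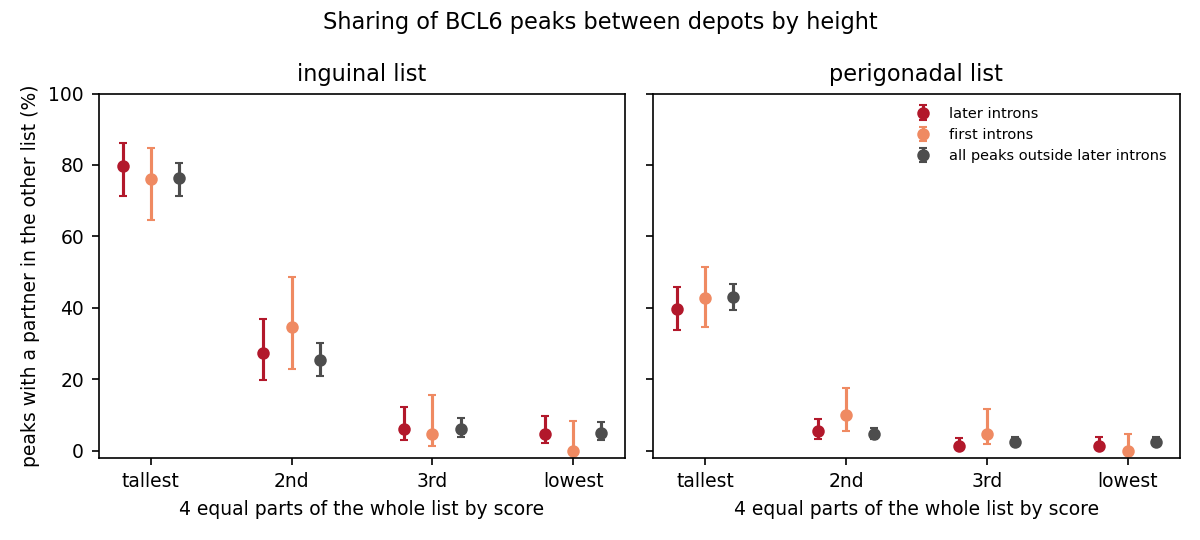
Share of BCL6 peaks with a partner in the other list (%), with the whole list ranked by score and cut into 4 equal parts, for later introns, first introns and all peaks outside later introns; points are shares and bars Wilson 95% intervals. Of later-intron peaks in the tallest part, 79.8% of inguinal and 39.7% of perigonadal peaks had a partner, against 4.69% and 1.30% in the lowest part. Equal scores were divided by their order in the list, so peaks of the same score can lie in different parts.

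In 119 pairs both peaks were later-intron peaks. That is 119 of the 128 inguinal and 119 of the 122 perigonadal peaks with a partner. The other partners were annotated in a repeat (6 for inguinal and 2 for perigonadal peaks) or in an exon (3 and 1). The centres of a pair lay a median of 27 bp apart and at most 182 bp, and 91 pairs lay within 50 bp. In 22 pairs the lists named a different intron or transcript for what is by position the same site. Across the 119 sites the log2 scores had a Pearson correlation of 0.79, given as a description because all sites come from the same libraries. Of the 30 tallest inguinal and 30 tallest perigonadal pair members, 21 were the same sites.

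Intron 4 of 6 of Rnls, which encodes the flavoprotein renalase, held the tallest later-intron peak of both lists (chr19:33274535-33274737, inguinal coordinates on mm10 here and below). Its score was 88.0 in inguinal fat (117 tags, Poisson interval of the score 72.8 to 105) and 133.1 in perigonadal fat (151 tags, 113 to 156). It lay 117.7 kb from the nearest promoter, which is that of Rnls itself. The last intron, 4 of 4, of Ntpcr, a nucleoside triphosphatase gene, held the next site in both lists (chr8:125747515-125747717), at 82.7 inguinal (68.0 to 99.7) and 104.9 perigonadal (86.9 to 126). These 2 sites had the highest scores of all shared later-intron sites in both lists. The Rnls intervals lay above those of every other shared site except Ntpcr. The Ntpcr interval met that of the next site in each list, which in perigonadal fat was in Helz (64.6 to 98.5).

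Lower down, intron 2 of 31 of Helz, an RNA helicase gene, held a site at 47.4 inguinal and 80.2 perigonadal (chr11:107574018-107574220). Intron 17 of 22 of Clec16a, a gene linked to mitophagy, held a site at 45.1 inguinal and 45.8 perigonadal (chr16:10639354-10639556). The inguinal intervals of these scores overlap (36.4 to 60.6 for Helz and 34.4 to 58.1 for Clec16a). The perigonadal intervals do not meet (64.6 to 98.5 for Helz and 34.2 to 60.1 for Clec16a).

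The other tall sites by the same rule are given with the function of each host. Intron 16 of 26 of Sympk, the scaffold of messenger RNA 3′ end processing, held a site at 41.4 inguinal and 52.0 perigonadal (chr7:19046436-19046638), 8.15 kb from the promoter of Rsph6a. Intron 13 of 20 of Dis3l2, an exoribonuclease gene, held one at 35.4 inguinal and 53.8 perigonadal (chr1:86996913-86997115), for which the nearest promoter was that of Alppl2, 92.9 kb away. Intron 9 of 28 of Ranbp2, a component of the nuclear pore, held one at 33.8 inguinal and 55.5 perigonadal (chr10:58463025-58463227). Intron 4 of 5 of Zmat5, whose product belongs to the minor spliceosome, held one at 36.9 inguinal and 45.0 perigonadal (chr11:4730990-4731192), nearest to the promoter of Cabp7. All of these rested on 45 or more tags in each list. Zswim6, a zinc finger gene, had 37.6 inguinal and 38.8 perigonadal in intron 2 of 14 (chr13:107831337-107831539), and Susd1 had 40.6 inguinal and 37.0 perigonadal in intron 13 of 16 (chr4:59331963-59332165).

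Akt1, the kinase that carries the insulin signal downstream of PI3K, had 2 shared sites in intron 2 of 13. The one nearer the promoter, 3.14 kb away, scored 33.8 inguinal (24.7 to 45.3) and 52.9 perigonadal (40.4 to 68.1) at chr12:112671032-112671234. The other, 6.45 kb away at chr12:112667727-112667929, scored 30.8 inguinal (22.1 to 41.8) and 22.0 perigonadal (14.3 to 32.5). The pair of sites had overlapping intervals in inguinal fat, while in perigonadal fat the intervals did not meet.

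A few more shared sites are named here after their values were seen. Col12a1, a fibril-associated collagen gene, had a site in intron 63 of 65 with 33.1 inguinal and 31.7 perigonadal. Myo18a, an unconventional myosin gene, had one in intron 37 of 38 with 24.1 inguinal and 38.8 perigonadal. Ncoa1, a coactivator of nuclear receptors, had one in intron 2 of 22 with 30.8 inguinal and 28.2 perigonadal. Slc25a12, the mitochondrial aspartate-glutamate carrier, had one in intron 3 of 17 with 31.6 inguinal and 37.9 perigonadal.

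**Figure D3:**
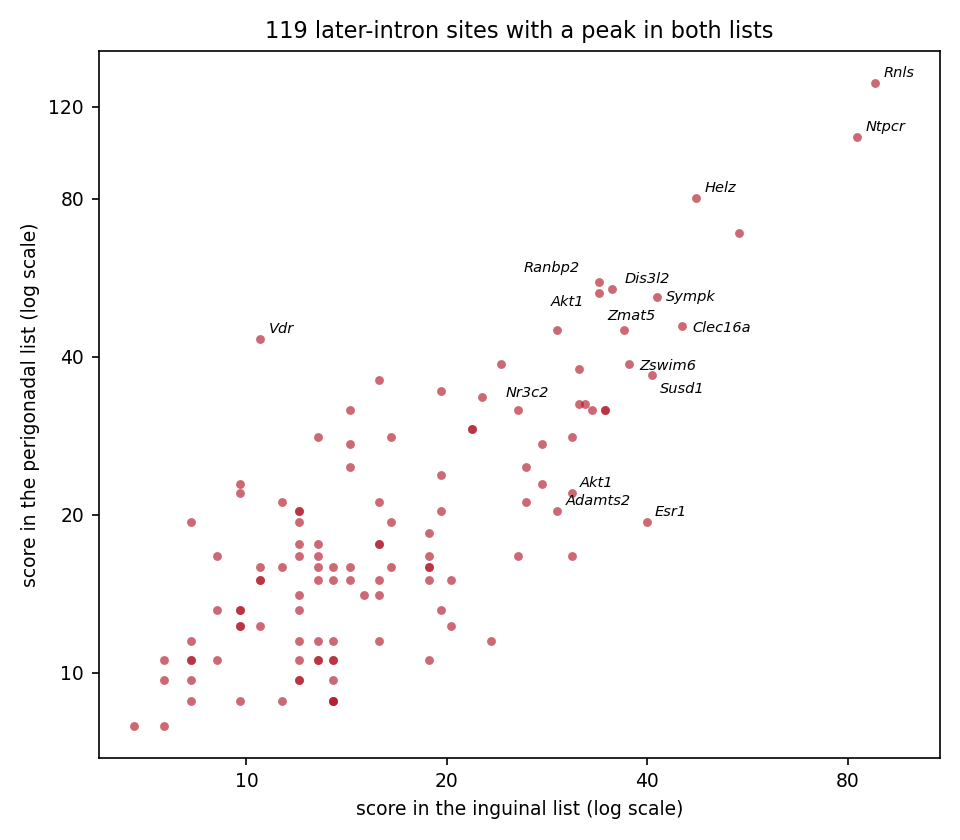
Score in the inguinal list (x axis, log scale) against score in the perigonadal list (y axis, log scale) at the 119 later-intron sites with a peak in both; each point is 1 site, named by its host gene for the tallest pairs and selected others. Rnls and Ntpcr lie farthest to the top right, and Vdr has 10.5 inguinal but 43.2 perigonadal.

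Peaks without a partner did not reach the height of the tallest shared sites. In inguinal fat they began with intron 18 of 24 of Ctr9, a subunit of the PAF1 elongation complex, at 24.1 (32 tags, score interval 16.5 to 34; chr7:111049781-111049983). Crocc2, related to the ciliary rootlet protein, had 21.1, and Casz1, a zinc finger transcription factor gene, had 20.3. Fam117a had 18.8 at a site nearer to the promoter of Slc35b1, and Sh3pxd2a, a podosome scaffold gene, had 17.3. Dhx8, a splicing helicase gene, and Mapkbp1 both had 16.5, and Zmiz1, a transcriptional coregulator gene, had 15.8. The first of the 8 ranked 108 and the last 263 of all inguinal peaks, with 21 to 32 tags.

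The 8 tallest perigonadal peaks without a partner held 30 to 51 tags. Intron 2 of 4 of the long noncoding RNA D030024E09Rik held a peak of 45.0 (51 tags, 33.5 to 59.1; chr15:61753953-61754137). Intron 2 of 26 of Hdac4, a class II histone deacetylase gene, held one of 36.1 (41 tags, 25.9 to 49.0; chr1:92137271-92137455), 43.0 kb from its promoter. The noncoding RNA Gm31763 had 34.4, Cdkal1, a tRNA-modifying enzyme gene, had 30.9 in intron 15 of 16, and Sergef had 29.1. Fbxo15, an F-box gene, had 27.3. Samd4b, an RNA-binding protein gene, and Tacc2, a centrosomal protein gene, both had 26.4. The Samd4b site lay nearest to the promoter of Paf1, 18.3 kb away. The perigonadal list is the longer one, and its header names no threshold, so a missing inguinal partner is not a measured absence.

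Later-intron peaks were spread over many genes. The 1463 peaks formed 1342 sites, counting overlapping peaks once, in 1116 host genes, of which 962 had 1 site, 104 had 2 and 50 had 3 or more. A later-intron peak was present in 1.80% of 21900 protein-coding genes for the inguinal list, 3.78% for the perigonadal list and 4.89% for either. Host genes were long, with medians of 102.6 kb inguinal and 113.1 kb perigonadal, beside 97.2 and 95.8 kb for hosts of first-intron peaks and 17.1 kb for all protein-coding genes. Genes with 3 or more sites had a median length of 350.8 kb, against 92.4 kb for genes with 1 site.

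Esr1, the gene of estrogen receptor alpha, had the most sites, 6 of them over 104.3 kb. Its tallest site scored 39.9 inguinal (53 tags, 29.9 to 52.1) and 19.4 perigonadal (22 tags, 12.2 to 29.4) at chr10:4743026-4743228. A second shared site scored 14.3 inguinal and 15.9 perigonadal, and the peaks of this pair overlapped only at their edges. The other 4 sites had perigonadal peaks only, at 16.7, 11.5, 10.6 and 9.70. Esr1 thus had 2 inguinal and 6 perigonadal peaks.

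Macrod2, an ADP-ribosylhydrolase gene of 1997.7 kb, had 5 sites of which 1 was shared, at 9.03 inguinal and 13.2 perigonadal. Ptprm, a receptor tyrosine phosphatase gene, and Sema6d, a semaphorin gene, had 5 sites each, all perigonadal, of at most 13.2 and 12.3. Rgl1, an exchange factor for Ral, had 5 sites and shared none of them. Its 2 inguinal peaks scored 8.27 and 7.52 and its 3 perigonadal peaks 17.6, 10.6 and 9.70. Of the perigonadal peaks of these 4 genes, the tallest was the Rgl1 peak of 17.6, with 20 tags.

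Among genes with 4 sites, Lrmda had 2 shared sites, of 19.6 inguinal and 34.4 perigonadal in its last intron, and of 7.52 inguinal and 9.70 perigonadal in intron 2. Dis3l2, Cradd, a death-domain adaptor gene, and Foxp1, a forkhead repressor gene, shared 1 of their 4 sites. Hdac4 and Zfp704 had 2 inguinal and 2 perigonadal peaks at separate places. Camk2d, Dennd1a, Matn2 and Pard3 shared none either. Of genes with 3 sites, Dapk1, a death-associated kinase gene, and Rad51b, a recombination gene, shared 2 each. The taller of the Rad51b sites by its lower score had 18.8 inguinal and 15.0 perigonadal, and the taller Dapk1 site had 12 inguinal and 19.4 perigonadal.

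**Figure D4:**
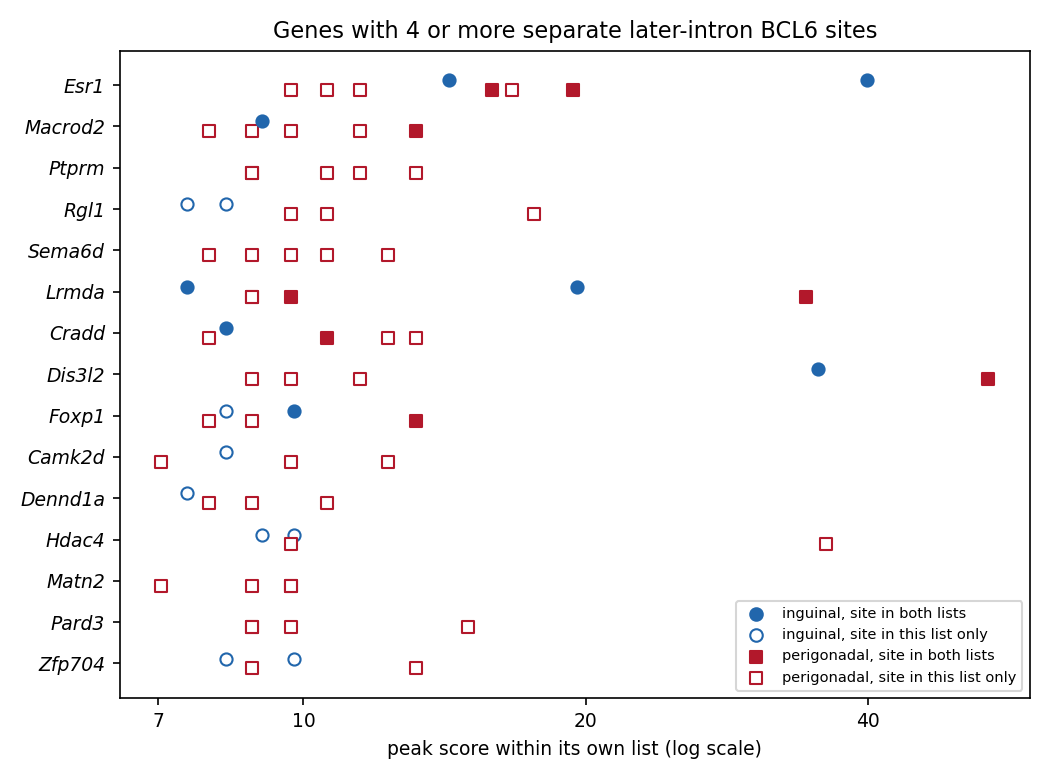
Scores (x axis, log scale, each within its own list) of the later-intron peaks of genes with 4 or more separate sites; circles are inguinal and squares perigonadal peaks, filled where the site has a peak in both lists and open where it has 1. Most symbols lie below a score of 20, and Dis3l2 and Esr1 reach above 35 at shared sites while Hdac4 does so at a perigonadal site only.

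Functional gene lists were read against the share of protein-coding genes with a later-intron peak given above, 1.80% inguinal and 3.78% perigonadal. These shares take no account of gene length, and all lists but that of inflammation had a median gene length above the 17.1 kb of protein-coding genes. Of the 13 lists, 16 genes held an inguinal and 51 a perigonadal later-intron peak. Of them, 10 and 20 had a peak of more than 12 tags. Among all later-intron peaks 38.5% and 24.2% were of that height, but that share counts peaks and not genes. The list counts are by host gene. By the gene of the nearest promoter, 15 inguinal and 37 perigonadal list genes were counted.

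The insulin, PI3K and AKT list had 1 inguinal and 8 perigonadal genes of 30 (median length of the listed genes 89.4 kb), and Akt1 was the gene in both. Grb10, an adaptor that restrains the insulin receptor, had 11.5 perigonadal, Tsc1, a brake on mTORC1, had 10.6, and Foxo3, a forkhead factor inhibited by AKT, had 9.70. Pik3r1, Rptor and Cbl each had 8.82. Apart from Akt1, none of these perigonadal sites had an inguinal partner, and Grb10 alone of them exceeded 12 tags. The growth hormone, IGF and STAT list had 1 inguinal and 0 perigonadal genes of 21, a low peak of 7.52 in intron 3 of 4 of Igf1.

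The nuclear hormone receptor list had 3 inguinal and 5 perigonadal genes of 22 (median length 44.3 kb), each with a peak of more than 12 tags. Esr1 is described above. Vdr, the vitamin D receptor gene, had a shared site in intron 3 of 9 with 10.5 inguinal (14 tags, 5.76 to 17.7) and 43.2 perigonadal (49 tags, 32.0 to 57.1) at chr15:97878857-97879059. By height among the 119 pairs it ranked 95 inguinal and 12 perigonadal. Nr3c2, the mineralocorticoid receptor gene, had a shared site in intron 6 of 8 with 25.6 inguinal (17.7 to 35.7) and 31.7 perigonadal (22.2 to 43.9). That site lay 285.5 kb from the nearest promoter, which was its own. Perigonadal peaks without a partner lay in Nr1h3, the gene of the oxysterol receptor LXR alpha, at 13.2, and in Rarb, a retinoic acid receptor gene, at 11.5 and 8.82.

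The adipocyte list had 2 inguinal and 6 perigonadal genes of 27 (median length 26.4 kb). Klf15, a regulator of adipocyte and glucose metabolism, had a shared site in its last intron, 2 of 2, with 14.3 inguinal (8.60 to 22.3) and 15.0 perigonadal (8.73 to 24.0) at chr6:90471304-90471506. Tcf7l2, a Wnt pathway transcription factor gene, had 13.2 perigonadal. Lep, the leptin gene, Ebf1 and Zfp423 had perigonadal peaks of up to 8.82. Nfia had 6.77 inguinal and 8.82 perigonadal at separate places. Only the Klf15 site of this list was shared.

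Lipid synthesis had 1 inguinal and 3 perigonadal genes of 25 (median length 59.7 kb). These were Elovl6, a fatty acid elongase gene, at 9.03 inguinal, and Agpat3, Acsl1 and Acly at 15.0, 9.70 and 8.82 perigonadal. Lipolysis and cAMP signalling had 1 inguinal and 4 perigonadal genes of 28 (median length 99.2 kb), with Adcy3, an adenylyl cyclase gene, at 8.27 inguinal and at 12.3 and 9.70 perigonadal. Fatty acid oxidation and thermogenesis had 0 inguinal and 2 perigonadal genes of 20 (median length 23.3 kb), Esrrg at 13.2 and Ppard at 7.05. The circadian clock list had 1 inguinal and 4 perigonadal genes of 20 (median length 36.9 kb). Npas2, a partner of BMAL1, had inguinal peaks of 9.78 and 8.27 and a perigonadal peak of 8.82, all at different places, and Rora, Rorb and Arntl had perigonadal peaks of at most 9.70. No site of these 4 lists was shared.

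Among the histone deacetylases and corepressors, 1 inguinal and 6 perigonadal genes of 20 (median length 81.5 kb) held a later-intron peak, and no site was shared. Hdac4 had inguinal peaks of 9.78 and 9.03 and perigonadal peaks of 36.1 and 9.70. Ctbp2 and Mta3, both genes of corepressor complexes, had 9.70 perigonadal. Ncor1, which encodes a corepressor that BCL6 binds, had 8.82 in intron 43 of 44, and Hdac1 and Hdac9 had 8.82 and 7.93. Hdac4 was the one gene of the list with a peak of more than 12 tags.

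The matrix and TGF-beta list had 4 inguinal and 5 perigonadal genes of 25 (median length 87.7 kb), with 3 shared sites. Adamts9, a secreted metalloproteinase gene, had 32.3 inguinal and 32.6 perigonadal in intron 17 of 29. Adamts2, the procollagen N-proteinase gene, had 29.3 inguinal and 20.3 perigonadal in intron 2 of 21. Col4a2, a basement membrane collagen gene, had 12 inguinal and 11.5 perigonadal in intron 4 of 47. Tgfbr3 had 8.27 inguinal and 8.82 perigonadal at different sites, and Fbn1, the fibrillin gene, had 3 perigonadal peaks of at most 10.6.

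Inflammation and NF-kappaB had 0 inguinal and 2 perigonadal genes of 25, Ikbkb, a kinase gene of the pathway, at 19.4 and Nfkb1 at 7.93. BCL6 targets known from lymphocytes had 0 inguinal and 2 perigonadal genes of 20, Bach2 at 13.2 and Rora at 9.70. Cell adhesion and actin had 1 inguinal and 5 perigonadal genes of 25, with Myo1d at 9.03 inguinal and Pard3 and Palld at 15.0 and 13.2 perigonadal, in a list with a median length of 259.5 kb. Of the markers of other cell types, 0 of 8 genes each for macrophages, endothelium, preadipocytes with fibroblasts, and lymphocytes held a later-intron peak. For mammary and mesothelial epithelium it was 1 of 8, Lrrn4 at 8.27 inguinal. A BCL6 peak in a marker gene does not measure its expression, so these counts are no measure of which cells were present.

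**Figure D5:**
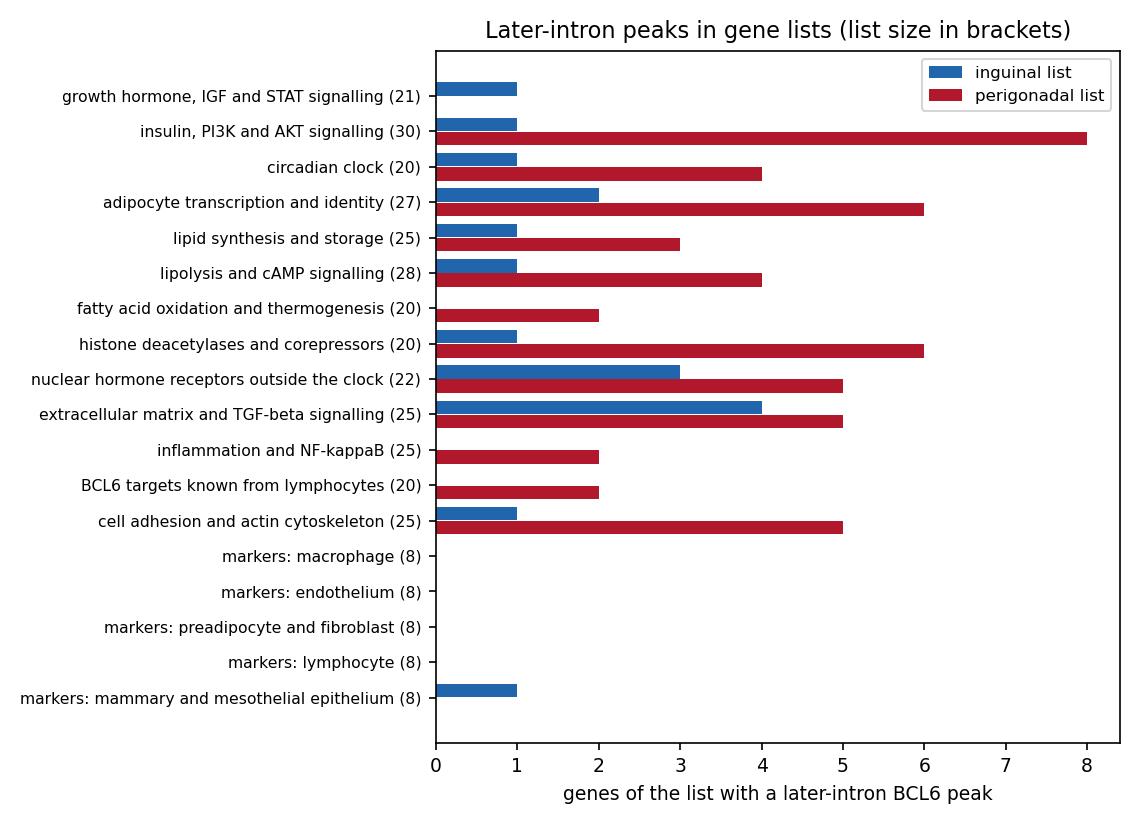
Number of genes with a later-intron BCL6 peak (x axis) in each gene list, with the size of the list in brackets; the upper bar is the inguinal and the lower bar the perigonadal list. The counts reach 4 genes inguinal and 8 perigonadal, and the marker lists hold 1 gene in all.

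By position in the gene, intron 2 held 132 inguinal (29.2%) and 266 perigonadal (26.3%) later-intron peaks. Introns 3 to 5 held 30.5% and 28.3%, introns 6 to 10 held 19.0% and 23.8%, and introns beyond 10 held 21.2% and 21.6%. The share with a partner varied little along this order, between 26.0 and 31.4% inguinal and between 10.4 and 13.5% perigonadal. The median peak lay in intron 4 inguinal and 5 perigonadal, of transcripts with a median of 14 introns. The deepest sites by number were low, at 8.27 inguinal in intron 127 of 145 of Syne1, a nuclear envelope protein gene, and at 8.82 and 10.6 perigonadal in introns 102 and 101 of 102 of Dst, the dystonin gene.

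The last intron held 36 inguinal (7.96%, 5.81 to 10.8%) and 102 perigonadal (10.1%, 8.38 to 12.1%) later-intron peaks. If every later intron of each transcript were as likely to hold a peak, 60.2 and 134.6 peaks (13.3% in both lists) would lie in the last one. Both intervals lie below that share, but they cover counting error only. The same assumption gives intron 2 the same expected share, and intron 2 held 29.2% inguinal and 26.3% perigonadal. Intron 2 thus lay above the assumption, so the last-intron share cannot by itself be read as a depletion. The comparison takes no account of the length of introns, which was not measured here. Shared sites in a last intron include those of Ntpcr, Klf15 and Lrmda.

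The distance to the nearest promoter had a median of 33.9 kb inguinal (quartiles 15.6 and 72.0) and 37.9 kb perigonadal (15.6 and 85.4), above the minimum that the rule set. The lists did not always use the same promoter for the same site. A shared site in Frmd4b had a distance of 9.27 kb inguinal and 167.7 kb perigonadal, and one in Ptprg had 22.5 and 116.8 kb. Distances, intron numbers and nearest promoters should therefore not be compared between depots. The farthest peaks, at 1063.6 kb inguinal and 1085.3 kb perigonadal, both lay in intron 7 of 18 of Macrod2. Just inside the rule stood an inguinal peak in B230217C12Rik at 1198 bp with a score of 7.52 and a perigonadal peak in Tspan12 at 1023 bp with 8.82. Just outside stood an inguinal peak in Slc26a7 at 600 bp with 7.52, and perigonadal peaks in Lrp2bp at 892 bp with 8.82 and in Osbpl1a at 867 bp with 26.4.

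The nearest promoter was that of the host gene for 288 of 452 inguinal peaks (63.7%, 59.2 to 68.0%) and for 622 of 1010 perigonadal peaks (61.6%, 58.5 to 64.5%). For the other 164 and 388 peaks, a list of nearest genes names a gene other than the one that holds the site. That gene was protein-coding for 110 and 249 of them, a long noncoding RNA for 29 and 71, and a microRNA for 20 and 61. A BCL6 peak also lay within 1 kb of the host's own promoter for 3 of 418 inguinal hosts (0.718%) and 17 of 861 perigonadal hosts (1.97%, 1 of the 861 without a symbol). The 3 inguinal hosts were Cradd, Shq1 and Sipa1l2. A first-intron peak was present in 19 inguinal hosts (4.55%) and 63 perigonadal hosts (7.32%). The shares of all genes with such peaks were not counted, so these values cannot be read as low or high.

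A microRNA gene is shown as an example of such a neighbour. A perigonadal peak in intron 3 of 5 of Hoxd4 scored 8.82 (10 tags, chr2:74724296-74724480) and lay 1.68 kb from the hairpin of Mir10b. Mir10b encodes a microRNA of the Hoxd cluster, and RefSeq gives its mature sequences as below, with the seed, bases 2 to 8, in capitals.
miR-10b-5p: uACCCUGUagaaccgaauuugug
miR-10b-3p: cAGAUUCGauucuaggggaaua
The peak had no inguinal partner, and no measurement of the microRNA itself was analysed here.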

How the data were processed

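BCL6 chromatin immunoprecipitation was analysed in 2 of 4 samples, 1 per depot. The submitters' processing notes name Bowtie 1.2, HOMER and the mm10 genome. Per the file headers the inguinal peaks passed a false discovery rate of 0.001, and the perigonadal header names no threshold. The deposited peak score, annotation and distance to the nearest promoter are the authors' values, and scores were compared only within a list except to relate shared pairs. The deposited focus ratio, a fraction per peak, entered no result. Total depth is unknown.

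Computed here, in Python 3.11.15 with pandas 2.3.3, numpy 2.4.6 and scipy 1.17.1, were members by the rule, tags from score steps, partners by overlap of 1 bp, Wilson and exact Poisson 95% intervals, and host genes, matched by transcript to RefSeq on GRCm38.p6 (449 inguinal and 1006 perigonadal peaks) or to the list itself (3 and 3), with 2 left unnamed. First-intron peaks were chosen by the same limits. Scripts were tested on simulated data.

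Members, gene lists and rules were chosen with earlier results of these data known. Named genes were the hosts of the 12 tallest shared pairs by lower score, the 8 tallest unshared peaks per list, up to 4 genes per gene list, genes with 3 or more sites (those with 4 or more, and examples of the rest) and the 3 deepest peaks; others complete counts or were named after their values were seen. Alternatives changed the peaks used, overlap, repeats, minimum distance and gene assignment. A few items that these rules take in are not reported here.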

Additional observations from a re-analysis of the deposited data

How the results depend on the processing

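Of 69 alternative values for 15 results, 55 stayed within the interval of the value reported (for counts, within 1.5 times) and 14 moved. With only peaks of more than 12 tags, 174 inguinal and 245 perigonadal later-intron peaks were left. Then 55.75% and 38.78% had a partner that itself held more than 12 tags, their median scores were 13.5 and 15.9 (the same as those of the other peaks of that height), 7.755% of perigonadal peaks lay in the last intron, and 10 inguinal and 20 perigonadal list genes remained. With the perigonadal list held to the length of the inguinal one, 487 later-intron peaks were left, 23.41% had a partner and the median score was 11.5, as among the other peaks kept. With a minimum distance of 5000 bp the perigonadal median distance was 41.14 kb. Spearman's rho of the paired scores was 0.6966, against the Pearson correlation of 0.7863 on the log2 scale. These alternatives used fewer peaks or another scale, and the reason for each move was not tested. Keeping peaks in repeats, autosomes alone, centres within 500 bp, a larger overlap and the gene of the nearest promoter moved no result in this sense. With the gene of the nearest promoter, 15 inguinal and 37 perigonadal list genes were counted, against 16 and 51 by host gene. The planned motif counts over whole peaks and their alternatives were not run, since no genome of the build was used here. No paired analysis was possible because each depot had 1 BCL6 library and no test was made. Peaks of up to 12 tags, with Poisson intervals as wide as their scores, limit statements on single low sites.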
